A study of Homo sapiens with 16 samples.

Results

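Glucose uptake and glycolysis were followed through 10 genes of the A673 series, chosen by name from the 39249 genes in the deposited tables. They are the glucose transporters SLC2A1 and SLC2A3, the hexokinases HK1, HK2 and HKDC1, the bifunctional enzymes PFKFB3 and PFKFB4, the glycolytic enzymes PGK1 and LDHA, and the kinase PDK1. A673 is an Ewing sarcoma line, from a tumour of bone and soft tissue whose driver is the fusion protein EWSR1-FLI1, which every line here carries. The tested lines were 3 knockouts made in A673, of MRPL45 (a protein of the mitochondrial ribosome), of CYC1 and of UQCRFS1 (both subunits of respiratory complex III), and are called the MRPL45, CYC1 and UQCRFS1 lines. The series title calls the knockout cells monoclonal, so 1 clone stands for each lost gene, and A673 without a knockout was the comparison. Each line received SP-2509 at 500 nM, which inhibits LSD1, a demethylase of histones, or DMSO at 0.1%, the solvent, and was collected after 48 h. With 2 libraries per group there were 8 groups and 16 libraries. Whether the 2 libraries of a group were grown separately is not labelled. The p-values thus rest on the spread within these pairs of libraries, pooled over the 8 groups, and that spread can be technical.

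Glucose enters cells through SLC2A transporters and is trapped as glucose 6-phosphate by hexokinases. PFKFB enzymes set the level of fructose 2,6-bisphosphate, the strongest activator of phosphofructokinase, which controls the pace of the pathway. PGK1 makes ATP further down, LDHA turns pyruvate into lactate and regenerates NAD+, and PDK1 holds back pyruvate dehydrogenase and so the entry of pyruvate into mitochondria. Cells with a poor respiratory chain depend on this pathway for ATP, and many of its genes are targets of the hypoxia-inducible factors and of MYC.

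The 16 libraries held 24873597 to 56171036 counts, and all 10 genes passed the filter on low counts. The targeted genes were lower in their own lines. Levels are given as CPM, counts scaled to library size times edgeR's TMM factor. With DMSO, CYC1 stood at 71.1 and 74.4 CPM in the CYC1 line, against 290.4 and 280.4 CPM in A673. UQCRFS1 stood at 58.6 and 60.9 CPM in the UQCRFS1 line, against 101.6 and 98.6 CPM in A673. MRPL45 was not analysed here. All 8 Ewing sarcoma markers were present, with summed levels of 2664 to 4080 CPM, while the summed markers of epithelial, blood, endothelial and skeletal muscle cells reached at most 0.537, 0.630, 1.19 and 0.134 CPM in any library. The share of counts on 13 mitochondrially encoded mRNAs stood apart between treatments in 3 lines. It was 1.48% and 1.77% with SP-2509, against 2.31% and 1.81% with DMSO, in the CYC1 line, 0.839% and 0.954%, against 1.71% and 1.30%, in the UQCRFS1 line, and 1.09% and 0.885%, against 1.93% and 1.15%, in A673. Its part in the results below was not tested.

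The upstream sequences are shown for the core letters that hypoxia-inducible factors recognise. The RefSeq start sites used here (build GRCh38.p14) covered 9 of the 10 genes, all but SLC2A3. The letters ACGTG, or alternatively the letters GCGTG, on either strand and counted within the 250 bases before a start, occurred in 10 of their 19 windows and in at least 1 window of 7 of the 9 genes. The same letters occurred in 43.2% of the 35116 RefSeq windows, and a share per gene was not computed. The palindrome CACGTG, an E-box that contains ACGTG, was in 6.3% of all windows. Among the 19 windows it was in 1 of 2 windows each of HK2, PFKFB3 and LDHA. The 100-base stretches below come from the pair PFKFB3 and PFKFB4, whose levels went in opposite directions, from LDHA and PGK1, whose levels moved little with SP-2509, and from HKDC1, which moved most. Of several windows the first with a match was taken, and stretches were placed around matches where there were any. The match counts of the stretches depend on that choice. Capitals mark these letters as read on either strand.
PFKFB3 (chr10:6144671-6144770, forward strand, 1 of 2 windows): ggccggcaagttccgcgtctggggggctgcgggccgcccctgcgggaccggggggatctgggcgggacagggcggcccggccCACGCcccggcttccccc
PFKFB4 (chr3:48556954-48557053, reverse strand): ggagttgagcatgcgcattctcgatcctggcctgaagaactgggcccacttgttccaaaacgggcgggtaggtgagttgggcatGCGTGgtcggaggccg
LDHA (chr11:18394405-18394504, forward strand, 1 of 2 windows): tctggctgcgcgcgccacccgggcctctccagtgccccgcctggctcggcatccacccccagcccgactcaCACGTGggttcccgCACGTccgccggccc
PGK1 (chrX:78103998-78104097, forward strand): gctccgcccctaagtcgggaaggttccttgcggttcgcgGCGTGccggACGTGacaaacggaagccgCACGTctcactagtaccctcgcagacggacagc
HKDC1 (chr10:69220232-69220331, forward strand): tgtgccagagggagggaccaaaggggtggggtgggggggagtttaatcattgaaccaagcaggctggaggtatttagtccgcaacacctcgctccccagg
PGK1 and LDHA carried 3 matches each in these stretches, but 2 of those of LDHA are the 2 strands of 1 CACGTG. PFKFB3 and PFKFB4 carried 1 each, and HKDC1 and SLC2A1 had none in their windows. A match describes letters only and was not tested as a binding site.

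SP-2509 changed most of the 10 genes in the MRPL45 and UQCRFS1 lines and in A673, and fewer in the CYC1 line. The directions differed from gene to gene. Called means an adjusted p under 0.05 in edgeR's quasi-likelihood test with Benjamini-Hochberg adjustment over all 21633 genes tested. Of the 10, 9 were called in the MRPL45 line (7 higher and 2 lower), against 18.5% of all genes tested (10.4% higher and 8.09% lower). There were 6 calls in the CYC1 line (3 higher and 3 lower), against 33.4% of all genes (18.7% higher and 14.7% lower). None of these 6 reached 2-fold. The UQCRFS1 line had 9 (6 higher and 3 lower), against 54.7% (29.6% higher and 25.1% lower), and A673 had 9 (5 higher and 4 lower), against 58.0% (31.6% higher and 26.4% lower). These shares cover all genes tested, scarce ones included. With a stricter filter (5 CPM in 2 libraries) 11573 genes were tested. Of these, 4204 were called in the MRPL45 line, 6442 in the CYC1 line, 8841 in the UQCRFS1 line and 9015 in A673. The calls among the 10 genes were then 9, 6, 9 and 8 in that order. With upper-quartile factors 5 rose and 4 fell in the UQCRFS1 line, where 43.6% of all calls were then higher, against 54.1% with TMM factors, and 4 rose and 4 fell in A673, where 41.6% were, against 54.4%. The median log2 fold change of the 10 was 0.25 in the MRPL45 line, -0.05 in the CYC1 line, 0.23 in the UQCRFS1 line and 0.15 in A673, and that of all genes lay between -0.03 and 0.02. Without CYC1 line DMSO replicate 2, or without its SP-2509 replicate 1, only 3 genes were called in that line. In RNA from whole cultures, fewer cells that express a gene and less RNA per cell cannot be told apart.

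**Figure D1:**
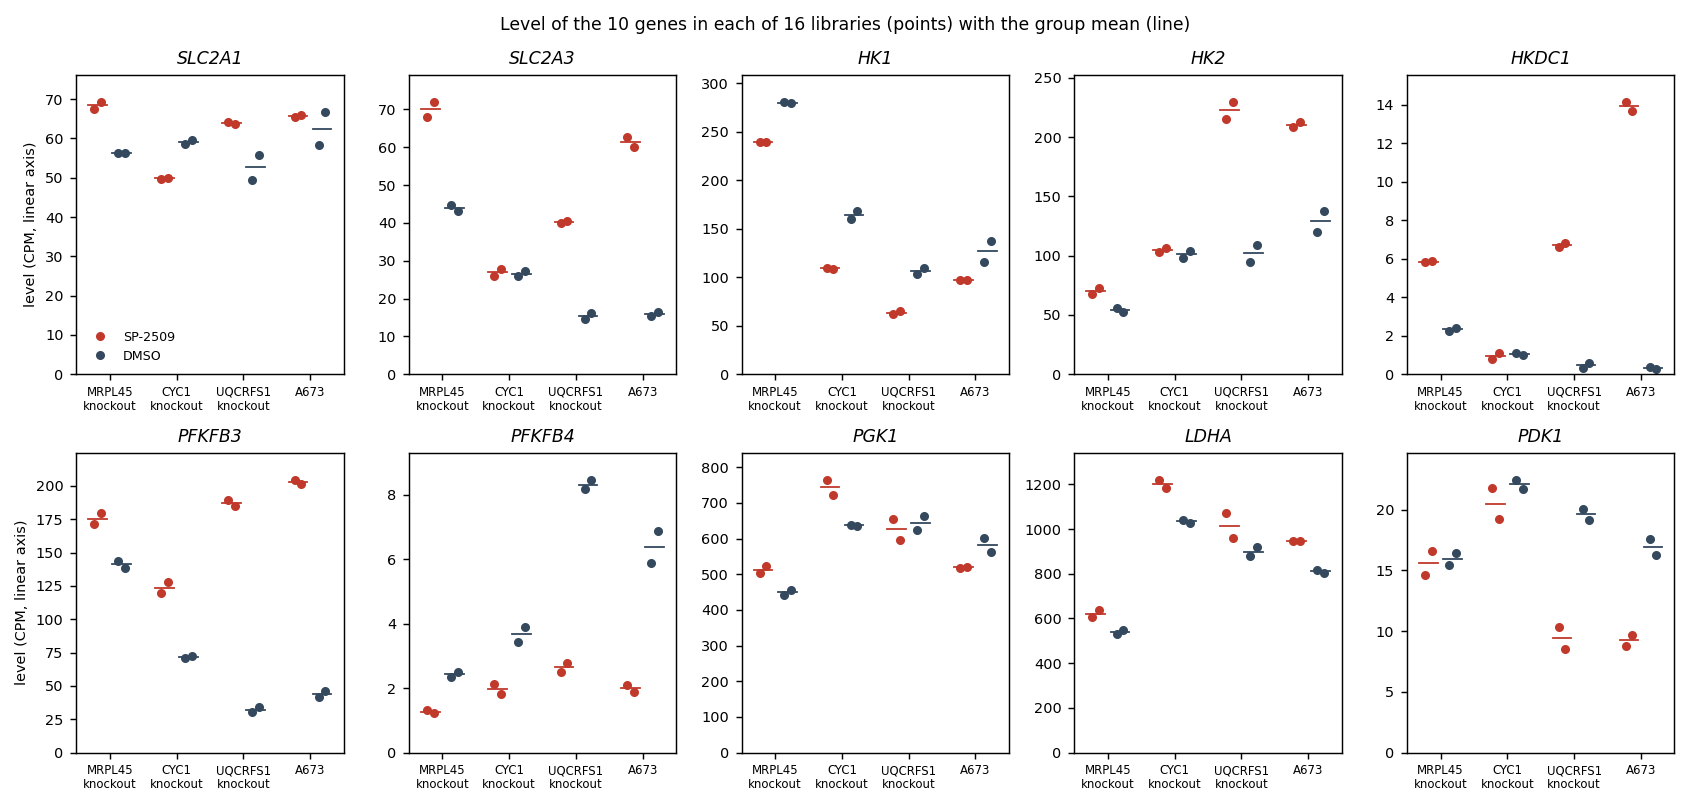
Level of each gene in CPM on a linear axis (points, 1 per library; line, mean of 2 libraries) in the 3 knockout lines and A673, with SP-2509 in red left of DMSO in dark blue. HKDC1, SLC2A3 and PFKFB3 stood far higher with SP-2509 in A673 and in the UQCRFS1 line, PFKFB4 stood lower with SP-2509 in all 4 lines, and LDHA and PGK1 moved little.

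SLC2A3, which encodes GLUT3, a high-affinity transporter best known from neurons, rose with SP-2509 in 3 lines. It had 68.1 and 71.99 CPM with SP-2509, against 44.7 and 43.1 CPM with DMSO, in the MRPL45 line. It had 40.0 and 40.6 CPM in the UQCRFS1 line with SP-2509, against 14.7 and 16.1 CPM with DMSO, and in A673 62.7 and 60.1 CPM, against 15.4 and 16.6 CPM. Its groups did not overlap in these 3 lines, and the rise was 1.60-fold, 2.62-fold and 3.85-fold in that order (log2 fold changes of 0.67 ± 0.06, 1.39 ± 0.07 and 1.94 ± 0.07 SE, n = 2 libraries per group). Levels overlapped in the CYC1 line, with 25.9 and 27.8 CPM with SP-2509, against 25.9 and 27.2 CPM with DMSO. There the log2 fold change was 0.02, with a 95% interval of -0.12 to 0.15. Close copies (SLC2A14 and 2 pseudogenes) held 0.46% to 2.81% of the counts of SLC2A3, and reads shared between the copies were not tested.

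SLC2A1, which encodes GLUT1, the basal transporter of most cells, stayed within a narrow range. Its 16 values lay between 49.5 and 69.3 CPM, and the highest group mean was 1.37 times the lowest. With SP-2509 it rose by 0.28 ± 0.07 on the log2 scale in the MRPL45 line and by 0.28 ± 0.06 in the UQCRFS1 line, where the value was 0.14 with upper-quartile factors or a stricter filter (5 CPM in 2 libraries) and still called. It fell by 0.24 in the CYC1 line, where the levels were 49.7 and 50.1 CPM with SP-2509, against 58.5 and 59.7 CPM with DMSO. That fall was no longer called without CYC1 line DMSO replicate 2 (-0.23) or SP-2509 replicate 1 (-0.23). In A673 the libraries overlapped, at 65.6 and 66.0 CPM with SP-2509, against 58.4 and 66.6 CPM with DMSO (log2 fold change of 0.07, 95% interval of -0.06 to 0.21). Per exon length, SLC2A3 made up 50.6% and 51.4% of the pair with SP-2509, against 44.7% and 43.9% with DMSO, in the MRPL45 line, and 49.3% and 48.1% with SP-2509, against 21.2% and 20.2% with DMSO, in A673.

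The hexokinases went apart. HK2, the inducible form common in tumours, rose in 3 lines, while HK1, the housekeeping form, fell in all 4. HK2 had 67.3 and 72.3 CPM with SP-2509, against 55.5 and 52.9 CPM with DMSO, in the MRPL45 line, and 216 and 229.9 CPM, against 94.9 and 109 CPM, in the UQCRFS1 line. In A673 it had 209 and 213 CPM with SP-2509, against 120.0 and 138 CPM with DMSO. None of these groups overlapped, and the log2 fold changes were 0.37 ± 0.07, 1.13 ± 0.07 and 0.71 ± 0.07 in that order. HK2 in the CYC1 line overlapped between treatments, with 103 and 107 CPM with SP-2509, against 98.3 and 104 CPM with DMSO (log2 fold change of 0.05, 95% interval of -0.10 to 0.20).

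HK1 had 109.6 and 109 CPM with SP-2509, against 159.7 and 168 CPM with DMSO, in the CYC1 line, and 61.9 and 64.8 CPM, against 103 and 109.7 CPM, in the UQCRFS1 line. In A673 it had 97.4 and 97.7 CPM with SP-2509, against 116 and 138 CPM with DMSO. The groups stood apart in each line, and HK1 fell by 0.59, 0.75 and 0.38 on the log2 scale in that order. Its fall of 0.23 in the MRPL45 line was called in the full set of libraries, but lost the call without any 1 of the 4 libraries of that line (-0.22 to -0.21, edgeR quasi-likelihood with Benjamini-Hochberg adjusted p of 0.0785 to 0.126). The count ratio of HK2 to HK1 was 3.48 and 3.55 with SP-2509, against 0.921 and 0.993 with DMSO, in the UQCRFS1 line. In A673 the ratio was 2.14 and 2.18 with SP-2509, against 1.03 and 1.00 with DMSO.

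HKDC1, a hexokinase domain protein of lower known activity, showed the widest range of the 10, with a highest group mean 44.6 times the lowest. It had 5.80 and 5.88 CPM with SP-2509, against 2.24 and 2.41 CPM with DMSO, in the MRPL45 line. HKDC1 in the UQCRFS1 line had 6.61 and 6.81 CPM with SP-2509, against 0.336 and 0.601 CPM with DMSO. In A673 it had 14.1 and 13.7 CPM with SP-2509, against 0.368 and 0.256 CPM with DMSO. The DMSO values of A673 rested on 17 and 10 counts and those of the UQCRFS1 line on 17 and 30 counts, so the folds of 43.7 (log2 fold change of 5.45 ± 0.21) and 14.3 (3.84 ± 0.20) are less precise than those of the other genes. The rise in the MRPL45 line was 2.52-fold (1.33 ± 0.17). In the CYC1 line HKDC1 stood at 0.815 and 1.09 CPM with SP-2509, against 1.12 and 1.01 CPM with DMSO, and the groups overlapped (log2 fold change of -0.17, 95% interval of -0.60 to 0.27). HKDC1 and HK1, whose start sites lie on the forward strand of chromosome 10, were called in opposite directions in the 3 lines where HKDC1 was called, with the limit on HK1 in the MRPL45 line given above. Per exon length HKDC1 made up 6.41% and 6.14% of the 3 hexokinases with SP-2509, against 0.221% and 0.131% with DMSO, in A673.

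**Figure D2:**
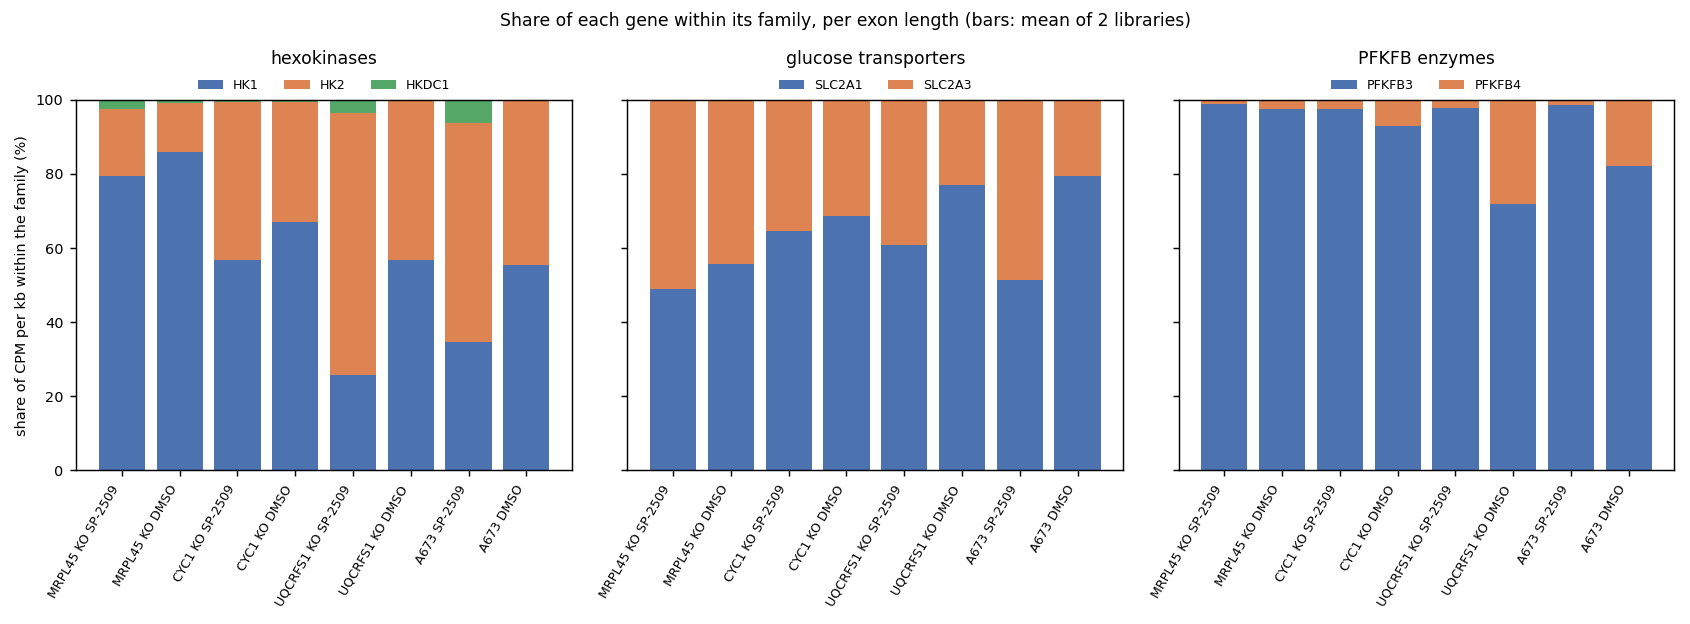
Share of each gene in the summed CPM per kb of its family, in percent (stacked bars, mean of 2 libraries), with the SP-2509 group left of its DMSO group in each line and A673 last. HK2 holds the larger share of the hexokinases with SP-2509 in the UQCRFS1 line and A673, and HK1 in the other 6 groups.

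PFKFB3 and PFKFB4 are paralogs, PFKFB3 being almost wholly a kinase that makes fructose 2,6-bisphosphate and PFKFB4 having more balanced kinase and phosphatase activity. PFKFB3 rose and PFKFB4 fell with SP-2509 in all 4 lines. PFKFB3 had 172 and 179 CPM with SP-2509, against 144 and 138 CPM with DMSO, in the MRPL45 line, and 119 and 128 CPM, against 71.0 and 72.6 CPM, in the CYC1 line. PFKFB3 in the UQCRFS1 line had 189.6 and 185 CPM with SP-2509, against 30.4 and 33.9 CPM with DMSO, and in A673 204 and 201 CPM, against 41.8 and 46.4 CPM. The treatments stood apart in every line. PFKFB3 rose 1.24-fold, 1.72-fold, 5.82-fold and 4.60-fold in that order of lines, or by 0.31 ± 0.06, 0.78 ± 0.06, 2.54 ± 0.07 and 2.20 ± 0.07 on the log2 scale.

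PFKFB4 was scarcer by CPM. It had 1.32 and 1.23 CPM with SP-2509, against 2.34 and 2.51 CPM with DMSO, in the MRPL45 line, and 2.12 and 1.83 CPM, against 3.44 and 3.89 CPM, in the CYC1 line. PFKFB4 in the UQCRFS1 line had 2.51 and 2.79 CPM with SP-2509, against 8.18 and 8.45 CPM with DMSO, and in A673 2.10 and 1.89 CPM, against 5.87 and 6.86 CPM. Again no groups overlapped, and PFKFB4 was 1.91-fold, 1.85-fold, 3.14-fold and 3.19-fold lower with SP-2509 in that order. The count ratio of PFKFB3 to PFKFB4 was 130.1 and 146 with SP-2509, against 61.5 and 55.2 with DMSO, in the MRPL45 line, and 56.3 and 70.0, against 20.7 and 18.6, in the CYC1 line. It was 75.5 and 66.3 with SP-2509, against 3.72 and 4.01 with DMSO, in the UQCRFS1 line, and 97.3 and 107, against 7.13 and 6.76, in A673.

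**Figure D3:**
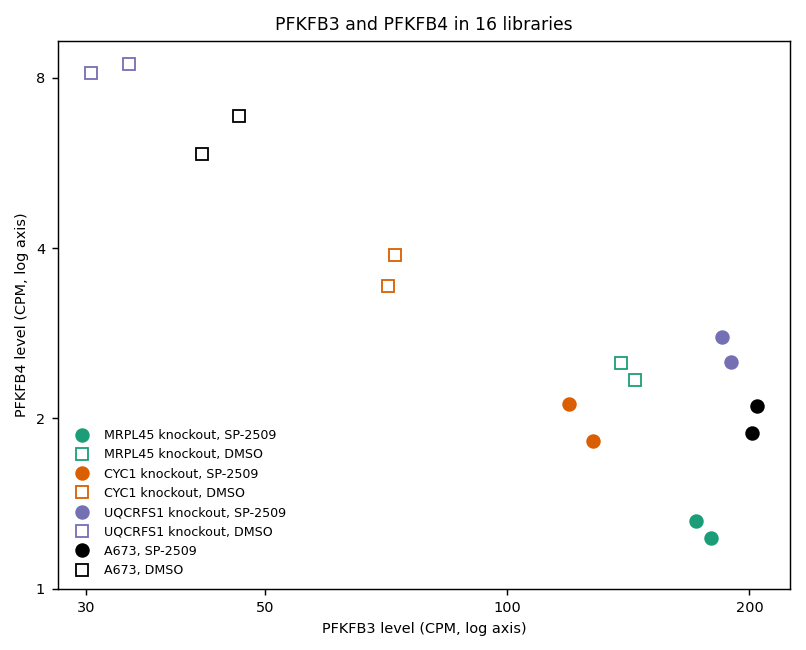
PFKFB4 against PFKFB3 in CPM on log axes, 1 symbol per library (filled circles, SP-2509; open squares, DMSO; colour, line). In each line the SP-2509 libraries lie to the right of and below the DMSO libraries, and the DMSO libraries of the UQCRFS1 line and A673 hold the 4 highest PFKFB4 levels.

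The abundant enzymes PGK1 and LDHA moved by small amounts. LDHA rose by 0.21 ± 0.06, 0.22 ± 0.06, 0.18 ± 0.06 and 0.22 ± 0.06 on the log2 scale in the MRPL45, CYC1 and UQCRFS1 lines and A673. In A673 this was 946 and 948 CPM with SP-2509, against 816 and 805 CPM with DMSO. With upper-quartile factors, LDHA stood at 0.04 in both the UQCRFS1 line and A673 and was called in neither, and with a stricter filter the values were 0.04 and 0.04. Leaving out 1 library also ended the LDHA call in each line: SP-2509 replicate 1 (0.18) or 2 (0.19) in A673, any 1 library in the CYC1 line (0.20 to 0.21), DMSO replicate 1 (0.18) or SP-2509 replicate 2 (0.18) in the MRPL45 line, and DMSO replicate 1 (0.15) or SP-2509 replicate 1 (0.10) in the UQCRFS1 line. Pseudogenes of LDHA held 0.235% to 0.605% of its counts.

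PGK1 had 503 and 523 CPM with SP-2509, against 443 and 455 CPM with DMSO, in the MRPL45 line (0.19 ± 0.06), and 764 and 723 CPM, against 639 and 636 CPM, in the CYC1 line (0.22 ± 0.06). In A673 it had 517 and 521 CPM with SP-2509, against 602 and 563 CPM with DMSO (-0.17 ± 0.06), so its called direction there was the other way. That fall was 0.35 with upper-quartile factors or the stricter filter. These groups did not overlap, whereas in the UQCRFS1 line they did, with 655 and 596 CPM, against 625 and 663 CPM (-0.04, 95% interval of -0.17 to 0.09). With upper-quartile factors the fall of 0.18 in the UQCRFS1 line was called. The PGK1 call was lost in A673 without DMSO replicate 1 (-0.16), and in the MRPL45 line without DMSO replicate 1 (0.17) or SP-2509 replicate 2 (0.18). The CYC1 line lost it without DMSO replicate 1 (0.20), DMSO replicate 2 (0.22) or SP-2509 replicate 1 (0.19).

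PDK1 fell with SP-2509 in 2 lines. It had 10.3 and 8.54 CPM with SP-2509, against 20.1 and 19.2 CPM with DMSO, in the UQCRFS1 line, and 8.77 and 9.71 CPM, against 17.6 and 16.3 CPM, in A673. The groups stood apart, and PDK1 was 2.08-fold lower in the UQCRFS1 line (log2 fold change of -1.06 ± 0.09) and 1.83-fold lower in A673 (-0.87 ± 0.10). In the MRPL45 line it had 14.7 and 16.6 CPM with SP-2509, against 15.5 and 16.4 CPM with DMSO, and in the CYC1 line 21.8 and 19.2 CPM, against 22.4 and 21.7 CPM. Those groups overlapped, with log2 fold changes of -0.02 (95% interval of -0.22 to 0.18) and -0.11 (-0.30 to 0.08).

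**Figure D4:**
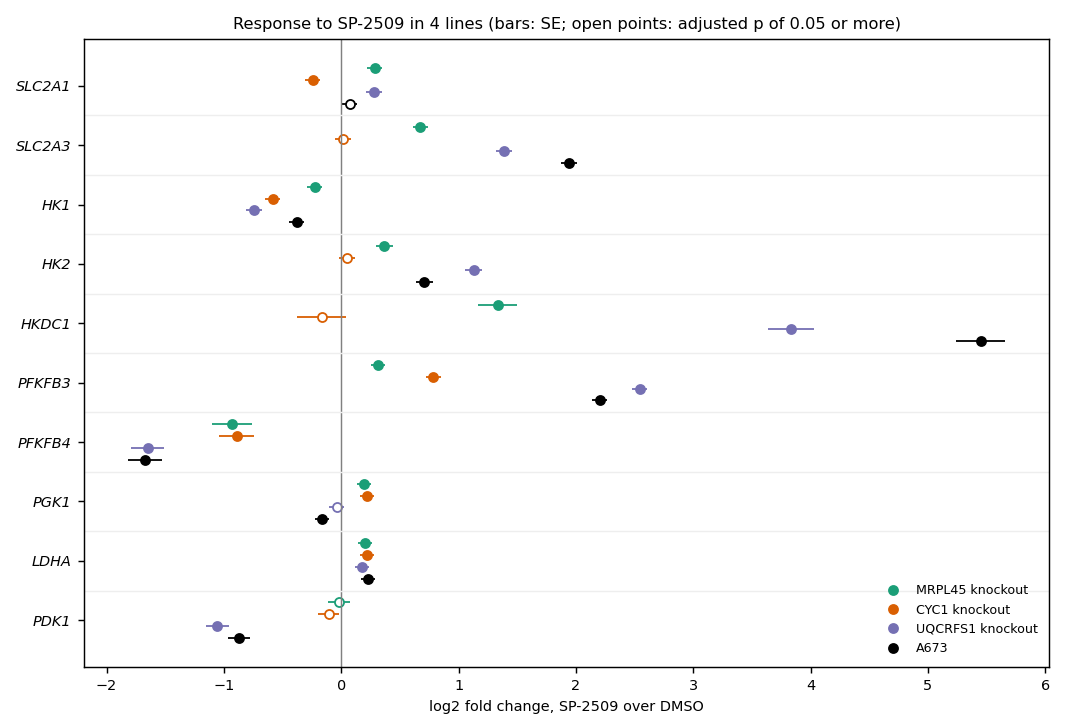
Log2 fold change of each gene, SP-2509 over DMSO, in the 3 knockout lines and A673 (points; bars, 1 SE; open points, adjusted p of 0.05 or more). The values of A673 and the UQCRFS1 line lie far from 0 for SLC2A3, HKDC1, PFKFB3, PFKFB4 and PDK1, where those of the MRPL45 and CYC1 lines lie nearer to it.

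Per exon length, the order of the genes also changed in A673. LDHA led with a mean of 319 CPM per kb with SP-2509, against 273 CPM per kb with DMSO, and PGK1 followed with 104 CPM per kb, against 117 CPM per kb. PFKFB3 came next with SP-2509 at 37.3 CPM per kb, but with DMSO stood at 8.10 CPM per kb, below HK1, HK2 and SLC2A1. HK2 stood at 35.5 CPM per kb with SP-2509, against 21.7 CPM per kb with DMSO, and HK1 at 20.9 CPM per kb, against 27.2 CPM per kb. HKDC1 stood at 3.77 CPM per kb with SP-2509, against 0.085 CPM per kb with DMSO. The value of PDK1 per kb is set low by its annotated length of 14253 bases and is not ranked.

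The responses of the knockout lines were set against that of A673 as a difference of log2 fold changes, knockout line minus A673, in the same fit. These 3 comparisons share the A673 libraries. Of the 10 genes, 7 differed in the MRPL45 line (3 higher and 4 lower), against 38.7% of all genes tested (14.5% higher and 24.2% lower). The CYC1 line had 8 (3 higher and 5 lower), against 33.9% (12.8% higher and 21.0% lower), and the UQCRFS1 line 5 (2 higher and 3 lower), against 10.7% (3.02% higher and 7.68% lower). With upper-quartile factors or a stricter filter, 5 of the 10 were higher and 3 lower in the MRPL45 line, and 3 were higher and 4 lower in the CYC1 line. With that filter 6957 of 11573 genes were called in the MRPL45 line and 6361 in the CYC1 line. With upper-quartile factors 52.9%, 57.0% and 40.2% of all calls in the MRPL45, CYC1 and UQCRFS1 lines were higher, against 37.5%, 37.8% and 28.3% with TMM factors. The count for the UQCRFS1 line dropped to 3 without A673 DMSO replicate 2, without either A673 SP-2509 library, or without DMSO replicate 1 or SP-2509 replicate 1 of that line. The HKDC1 response was smaller by 4.11 ± 0.28 in the MRPL45 line (adjusted p of 2.75e-11 by Benjamini-Hochberg in the edgeR quasi-likelihood test), since its rise there was 1.33, against 5.45 in A673. In the CYC1 line the HKDC1 difference was -5.61 ± 0.31 (adjusted p of 1.14e-12 by Benjamini-Hochberg in the edgeR quasi-likelihood test), and in the UQCRFS1 line it was -1.61 ± 0.33. Without DMSO replicate 2 of the UQCRFS1 line this last difference was -1.11 and not called.

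PFKFB3 and SLC2A3 had smaller log2 fold changes in the MRPL45 and CYC1 lines, where their DMSO levels were higher than in A673. With SP-2509, SLC2A3 averaged 70.0 CPM in the MRPL45 line and 26.9 CPM in the CYC1 line, against 61.4 CPM in A673. PFKFB3 averaged 175 CPM and 124 CPM there, against 203 CPM in A673. The PFKFB3 difference was -1.89 ± 0.09 in the MRPL45 line and -1.42 ± 0.09 in the CYC1 line, and the SLC2A3 difference was -1.27 ± 0.09 and -1.93 ± 0.10. In the UQCRFS1 line the SLC2A3 difference was -0.56 ± 0.10, while that of PFKFB3 was 0.34 ± 0.09 and so pointed to a larger rise. That PFKFB3 call was lost without A673 DMSO replicate 2 (0.26), without either A673 SP-2509 library (0.36 and 0.33), and without DMSO replicate 1 (0.26) or SP-2509 replicate 1 (0.31) of the UQCRFS1 line. PDK1 and PFKFB4, which fell in A673, fell less in the MRPL45 and CYC1 lines, with PDK1 differences of 0.85 ± 0.14 and 0.76 ± 0.13 and PFKFB4 differences of 0.74 ± 0.23 and 0.78 ± 0.21. The PFKFB4 difference in the MRPL45 line was not called by DESeq2 (0.74, DESeq2 adjusted p = 0.0543).

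HK2 rose less in the MRPL45 line (difference of -0.34 ± 0.10) and in the CYC1 line (-0.66 ± 0.10), and more in the UQCRFS1 line (0.42 ± 0.10). The HK2 call in the MRPL45 line was lost with upper-quartile factors (-0.19), with the stricter filter (-0.18), without A673 DMSO replicate 1 (-0.19), without either A673 SP-2509 library (-0.31 and -0.28), and without DMSO replicate 1 (-0.29) or SP-2509 replicate 1 (-0.27) of its own line. In the UQCRFS1 line it was lost without A673 DMSO replicate 2 (0.31) or DMSO replicate 1 of its own line (0.32). HK1 fell further in the UQCRFS1 line (-0.37 ± 0.09), a call that ended without A673 DMSO replicate 1 (-0.24), either A673 SP-2509 library (-0.36 and -0.36), DMSO replicate 2 (-0.29) or SP-2509 replicate 1 (-0.34) of that line. PGK1 differed by 0.36 ± 0.09 in the MRPL45 line and by 0.39 ± 0.09 in the CYC1 line. SLC2A1 differed by -0.32 ± 0.09 in the CYC1 line, and this call was lost with upper-quartile factors (-0.17), with the stricter filter (-0.18), without A673 DMSO replicate 1 (-0.20), and without DMSO replicate 2 (-0.29) or SP-2509 replicate 1 (-0.29) of that line. In the MRPL45 line SLC2A1 and HK1 were not called, at 0.21 and 0.15. They were called there with upper-quartile factors (0.36 for SLC2A1 and 0.31 for HK1), with the stricter filter (0.37 and 0.32) and without A673 DMSO replicate 1. SLC2A1 in the UQCRFS1 line (0.21) was called with the stricter filter (0.26), without A673 DMSO replicate 1 (0.31) or without DMSO replicate 2 of that line (0.32), and HK1 in the CYC1 line (-0.21) without A673 DMSO replicate 2 (-0.32). For LDHA none of the 3 differences was called, and their 95% intervals were -0.19 to 0.16, -0.18 to 0.17 and -0.22 to 0.13 in the MRPL45, CYC1 and UQCRFS1 lines.

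The knockout lines also differed from A673 before any SP-2509. With DMSO, 9 of the 10 genes were called in the MRPL45 line (4 higher and 5 lower), against 57.8% of all genes tested (28.9% higher and 29.0% lower). The CYC1 line had 8 (6 higher and 2 lower), against 37.6% (21.4% higher and 16.2% lower), and the UQCRFS1 line 5 (1 higher and 4 lower), against 30.8% (15.8% higher and 15.0% lower). With the stricter filter 8988, 6398 and 6050 of 11573 genes were called in the MRPL45, CYC1 and UQCRFS1 lines. The calls among the 10 genes were then 8, 9 and 7. With upper-quartile factors 43.4% of all calls in the CYC1 line were higher, against 56.9% with TMM factors. The 3 comparisons share the 2 A673 DMSO libraries. The median of the 10 was -0.12, 0.36 and 0.045 on the log2 scale in these lines, and that of all genes was 0.01 in each. In the UQCRFS1 line 3 genes were called without A673 DMSO replicate 2 and 2 without its own DMSO replicate 1. Lines grown from 1 clone differ in more than the targeted gene, and clone and knockout cannot be told apart here.

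In the MRPL45 line the transporter SLC2A3 stood at 44.7 and 43.1 CPM, against 15.4 and 16.6 CPM in A673 (2.75-fold higher, 1.46 ± 0.07), and PFKFB3 at 144 and 138 CPM, against 41.8 and 46.4 CPM (3.21-fold higher, 1.68 ± 0.07). HKDC1 was 7.28-fold higher there (2.86 ± 0.24). The hexokinases HK1 and HK2 again went apart. HK1 had 281 and 279.5 CPM in the MRPL45 line, against 116 and 138 CPM in A673 (1.14 ± 0.07), and HK2 had 55.5 and 52.9 CPM, against 120.0 and 138 CPM (-1.25 ± 0.07). HK1 thus made up 85.8% and 86.2% of the hexokinases per exon length in the MRPL45 line, against 55.1% and 55.9% in A673. LDHA and PGK1 were both lower, LDHA at 529 and 549.9 CPM, against 816 and 805 CPM in A673 (-0.59 ± 0.06), and PGK1 at 443 and 455 CPM, against 602 and 563 CPM (-0.38 ± 0.06). PFKFB4 was 2.63-fold lower (-1.39 ± 0.15) and PDK1 differed by -0.09 (95% interval of -0.28 to 0.10). The small fall of SLC2A1 (-0.15 ± 0.07) lost its call with DESeq2 (-0.13), median-of-ratios factors (-0.13), upper-quartile factors (-0.07), the stricter filter (-0.10), the libraries of these groups alone (-0.12), without A673 DMSO replicate 2 (-0.08) and without DMSO replicate 1 of the MRPL45 line (-0.16). Without A673 DMSO replicate 1 the fall was 0.29.

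SLC2A3 in the CYC1 line had 25.9 and 27.2 CPM, against 15.4 and 16.6 CPM in A673 (0.74 ± 0.07), and PFKFB3 had 71.0 and 72.6 CPM, against 41.8 and 46.4 CPM (0.70 ± 0.07). HKDC1 was 3.36-fold higher (1.75 ± 0.26). HK1 was higher by 0.37 ± 0.07 (0.23 without A673 DMSO replicate 1, still called) and HK2 was lower by 0.35 on the log2 scale. Unlike in the MRPL45 line, LDHA was higher, with 1039 and 1029 CPM, against 816 and 805 CPM in A673 (0.35 ± 0.06), and so was PDK1, with 22.4 and 21.7 CPM, against 17.6 and 16.3 CPM (0.38 ± 0.09). PFKFB4 was 1.73-fold lower (-0.79 ± 0.14). SLC2A1 and PGK1 were not called, at -0.08 (95% interval of -0.21 to 0.05) and 0.13 (0.01 to 0.26). SLC2A1 was called lower with upper-quartile factors (-0.17), with the stricter filter (-0.15) and without A673 DMSO replicate 1 (-0.19).

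Differences from A673 were small in the UQCRFS1 line. PFKFB3 had 30.4 and 33.9 CPM, against 41.8 and 46.4 CPM in A673 (-0.46 ± 0.07), and HK2 had 94.9 and 109 CPM, against 120.0 and 138 CPM (-0.34 ± 0.07), and neither pair of groups overlapped. HK1 (-0.26 ± 0.07), SLC2A1 (-0.25 ± 0.06) and PFKFB4 (0.39 ± 0.13) were also called. The HK1 call was lost without A673 DMSO replicate 2 (-0.12) or DMSO replicate 1 of the UQCRFS1 line (-0.20), and the value was -0.39 without A673 DMSO replicate 1. The SLC2A1 call was lost without the same A673 DMSO replicate 2 (-0.15) or DMSO replicate 1 of the knockout line (-0.16). The PFKFB4 call was lost with DESeq2 (0.38), with no filter (0.37), without A673 DMSO replicate 1 (0.27), and without DMSO replicate 1 (0.42) or 2 (0.35) of the knockout line. SLC2A3 and HKDC1 overlapped between the lines, with log2 fold changes of -0.05 (95% interval of -0.20 to 0.09) and 0.56 (-0.05 to 1.17). PGK1, LDHA and PDK1 were not called at 0.14, 0.15 and 0.21, although PGK1 and LDHA were with upper-quartile factors.

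**Figure D5:**
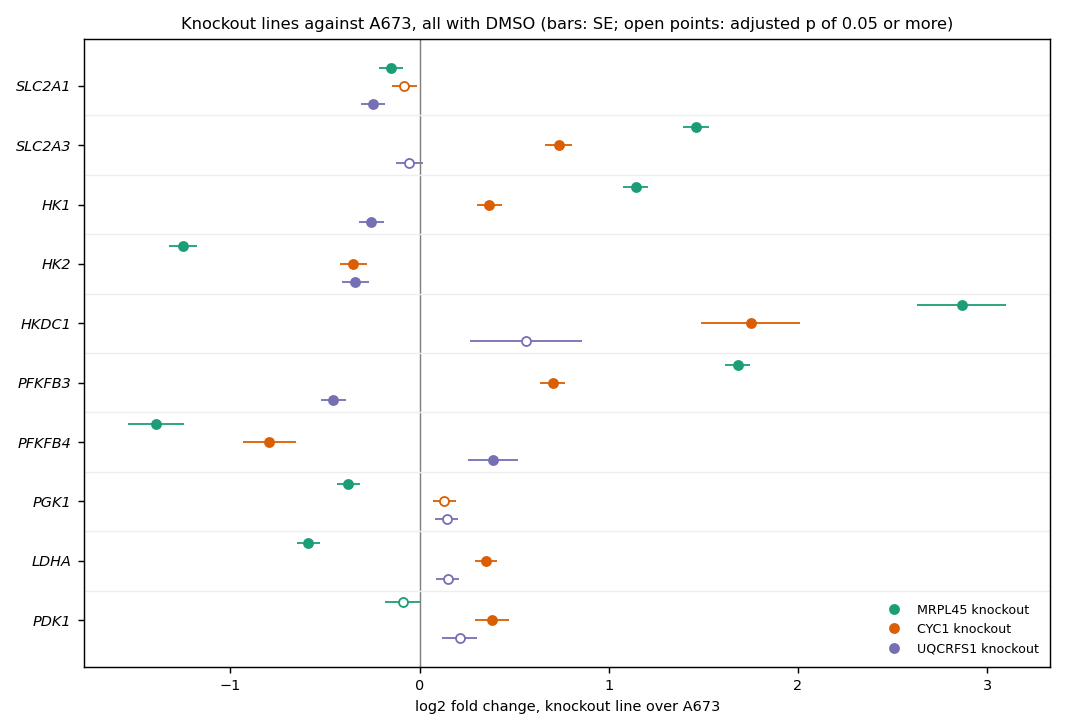
Log2 fold change of each gene, knockout line over A673, all with DMSO (points; bars, 1 SE; open points, adjusted p of 0.05 or more). SLC2A3, HK1, HKDC1 and PFKFB3 lie on the high side and HK2 and PFKFB4 on the low side in the MRPL45 and CYC1 lines, and the UQCRFS1 line stays within 0.6 of 0.

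The wider pathway was read from 8 lists with 81 further genes, of which 62 were tested. With SP-2509 in A673, 22 of the 62 rose and 28 fell, with a median log2 fold change of -0.17, where 31.6% of all genes tested were called higher and 26.4% lower. Other glycolytic enzymes were split, with 6 of 16 higher and 5 lower (median 0.10), and both tested PFKFB-related genes were higher (median 0.735). Of the other SLC2A family genes 1 of 8 was higher and 5 were lower (median -0.91). Of the lactate and pyruvate transport genes 3 of 7 were higher and 2 lower (-0.16). The pyruvate dehydrogenase list had 3 of 10 higher and 6 lower (-0.365), the pentose phosphate list 2 of 8 higher and 5 lower (-0.60), and gluconeogenesis 3 of 3 lower (-1.38). Of the transcription factors and sensors, 5 of 8 were higher and 2 lower (0.47). Over all genes the median was -0.03.

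The genes named from these lists were mostly picked for the largest called changes, so strong movement was built in. The first values are those of A673. PCK2, the mitochondrial enzyme that makes phosphoenolpyruvate, had 2.41 and 2.99 CPM with SP-2509, against 20.2 and 24.1 CPM with DMSO (-3.03 ± 0.12). G6PC3, a phosphatase of glucose 6-phosphate, fell by 1.38, and EMB, a partner of lactate transporters, fell by 1.90. EPAS1, which encodes HIF-2α, had 21.1 and 20.8 CPM with SP-2509, against 0.844 and 0.947 CPM with DMSO (4.55 ± 0.11). MYC had 417 and 387 CPM with SP-2509, against 179.6 and 184 CPM with DMSO (1.14 ± 0.06). PFKFB2, another PFKFB enzyme, had 31.2 and 31.6 CPM with SP-2509, against 14.3 and 14.6 CPM with DMSO, and HIF1A rose by 0.48 ± 0.06. Of the 62, 20 rose and 28 fell in the UQCRFS1 line, where 29.6% of all genes were higher and 25.1% lower. Its PCK2 stood at -2.59 ± 0.12, G6PC3 at -1.49 ± 0.08, EMB at -1.51 ± 0.18, MYC at 1.04 ± 0.06 and the lactate transporter SLC16A1 at 1.06 ± 0.06. ARRDC4, an arrestin whose gene responds to glucose, rose by 1.01 ± 0.07 there. It also stood higher with SP-2509 in A673, at 33.7 and 34.4 CPM, against 18.2 and 18.04 CPM with DMSO. In the CYC1 line ARRDC4 had 3.67 and 3.99 CPM, against 0.799 and 0.833 CPM, and in the MRPL45 line it rose by 0.72 ± 0.09. SLC16A1 in A673 had 531 and 543 CPM with SP-2509, against 248 and 270 CPM with DMSO. The rise of HIF1A by 0.21 ± 0.06 in the UQCRFS1 line was not called with upper-quartile factors (0.07) or without SP-2509 replicate 1 (0.16) or DMSO replicate 2 (0.17).

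In the MRPL45 line 8 of the 62 rose and 5 fell, where 10.4% of all genes were higher and 8.09% lower, and the total dropped to 8 without its SP-2509 replicate 2. EPAS1 had 139.6 and 139 CPM with SP-2509, against 77.0 and 76.6 CPM with DMSO (0.86 ± 0.06), PCK2 fell by 0.53 and MYC rose by 0.29 ± 0.06, while HIF1A was not called (0.05 ± 0.06). The fall of TALDO1, a pentose phosphate enzyme, by 0.33 was lost without its DMSO replicate 2 (-0.18) or SP-2509 replicate 2 (-0.26). In the CYC1 line 15 rose and 18 fell, where 18.7% of all genes were higher and 14.7% lower. PCK2 rose there by 0.46 ± 0.12, with EPAS1 at 0.62 ± 0.06, MYC at 0.47 ± 0.06, PFKFB2 at 0.69 ± 0.08, and the lactate exporter SLC16A3 at -0.96 ± 0.18. The response of EPAS1 was smaller than in A673 by 3.69 ± 0.13 in the MRPL45 line and by 3.93 ± 0.13 in the CYC1 line. In the UQCRFS1 line EPAS1 rose by 3.78 ± 0.15, and the difference from A673 was not called (-0.77 ± 0.24). Its levels with SP-2509 were 4.90 and 5.00 CPM there, against 21.1 and 20.8 CPM in A673. The DMSO values rested on 13 and 23 counts in the UQCRFS1 line and on 39 and 37 counts in A673.

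With DMSO the same transcription factor gene separated the lines. EPAS1 had 77.0 and 76.6 CPM in the MRPL45 line, against 0.844 and 0.947 CPM in A673 (6.42 ± 0.10), and 46.9 and 49.0 CPM in the CYC1 line (5.74 ± 0.10). Its level was 0.257 and 0.461 CPM in the UQCRFS1 line. HIF1A was at 0.01 ± 0.06 in the MRPL45 line, -0.35 ± 0.06 in the CYC1 line and 0.06 ± 0.06 in the UQCRFS1 line, called only in the CYC1 line. ENO2, the neuronal enolase, was lower in the MRPL45 and CYC1 lines. It had 17.2 and 15.6 CPM in the MRPL45 line (-2.33 ± 0.08), 15.2 and 14.7 CPM in the CYC1 line (-2.47 ± 0.08) and 123 and 139.95 CPM in the UQCRFS1 line (0.67 ± 0.07), against 78.6 and 87.1 CPM in A673. ARRDC4 had 4.36 and 4.49 CPM in the MRPL45 line and 0.799 and 0.833 CPM in the CYC1 line, against 18.2 and 18.04 CPM in A673.

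Some genes outside the pathway followed these genes closely over the 8 group means of log2 CPM, which is a description of 8 points that share lines and treatments. They were picked as the highest of 10451 or 10452 genes searched for each member, so a high r was partly built in. For PFKFB3 the likest was EGR2, an immediate early transcription factor (Pearson's r of 0.99), followed by FOSL2 (0.99), a partner of JUN. For SLC2A3 they were TNRC6C (0.99), which acts in silencing by small RNAs, and RCAN1 (0.98), an inhibitor of calcineurin. For HKDC1 they were KLHL15 (0.98) and LPIN2 (0.98), and for PFKFB4 KIAA0930 (0.99) and ZNF514 (0.99). SLC2A1 had the loosest match, with CDH24 at 0.88.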

How the data were processed

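Polyadenylated RNA of 16 libraries was analysed from gene tables. They hold raw counts per gene, per the file headers, and for each comparison the authors' deposited log2 fold changes and adjusted p-values. The submitters' processing notes name, without roles, the build hg19 and the tools STAR 2.5.2b, DESeq2, Trim Galore, FastQC and MultiQC. Strand, annotation and counter were not stated in the labels or headers. Genes without a symbol held 2.41% to 8.59% of a library's counts. Repeat copies of a library across tables were identical, and no replicate pair agreed within sampling noise. In the authors' deposited table the same members had an adjusted p under 0.05 in 6 of 7 comparisons, and SLC2A1 missed it in the MRPL45 line against A673.

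All 16 libraries entered 1 edgeR 4.0.16 fit (R 4.3.3) on the counts, with a mean per group, TMM factors, filterByExpr by group and robust quasi-likelihood dispersions. It tested 21633 genes with 8 residual degrees of freedom. Tests were two-sided, with Benjamini-Hochberg adjustment over all genes of a comparison and a threshold of 0.05. SE is the absolute log2 fold change over the square root of F. Exon lengths come from GENCODE on GRCh38, not from the files' build, and were matched by gene identifier. Alternatives were DESeq2 1.42.0, median-of-ratios and upper-quartile factors, no filter, a filter of 5 CPM in 2 libraries, the replicate number as a block, the compared groups alone, and each library left out, where a group left with 1 library is assumed to vary like the others.

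The 10 members and the 8 wider lists were chosen with earlier results of these data known. By rule, up to 3 rising and 3 falling called list genes could be named per comparison. They were those with the largest absolute log2 fold changes that averaged 5 CPM or more in the higher group. HIF1A, MYC and TXNIP (not analysed here) could be named too, and for each member the 3 genes most like it. Only a part of them is printed. The EPAS1 values of the UQCRFS1 line and the PCK2 response of the CYC1 line are printed outside this rule, after they were seen. So are the SP-2509 levels of ARRDC4 in A673 and the CYC1 line, and the SLC16A1 levels of A673. Their values under the alternatives are not reported here.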

Additional observations from a re-analysis of the deposited data

Results flagged for a closer look

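The results below stand out because the response to SP-2509 in a knockout line differed from that in A673 by the test of the difference itself, edgeR's quasi-likelihood test with Benjamini-Hochberg adjustment. Each value is the knockout line's log2 fold change minus that of A673, and all share the A673 libraries. In the MRPL45 line the differences were -4.11 for HKDC1, -1.89 for PFKFB3, -1.27 for SLC2A3, -0.34 for HK2, 0.36 for PGK1, 0.74 for PFKFB4 and 0.85 for PDK1. In the CYC1 line they were -5.61 for HKDC1, -1.93 for SLC2A3, -1.42 for PFKFB3, -0.66 for HK2, -0.32 for SLC2A1, 0.39 for PGK1, 0.76 for PDK1 and 0.78 for PFKFB4. In the UQCRFS1 line they were -1.61 for HKDC1, -0.56 for SLC2A3, -0.37 for HK1, 0.34 for PFKFB3 and 0.42 for HK2. HKDC1 and SLC2A3 responded less than in A673 in all 3 knockout lines. With DMSO, HKDC1 stood at means of 2.33 CPM in the MRPL45 line, 1.07 CPM in the CYC1 line and 0.468 CPM in the UQCRFS1 line, against 0.312 CPM in A673.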

How the results depend on the processing

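Of 75 called results for the 10 genes, 55 kept their call under every alternative run, which includes 41 of the 43 with an absolute log2 fold change of at least 0.5. The exceptions there were HKDC1 (UQCRFS1 line minus A673) and PFKFB4 (MRPL45 line minus A673). None reversed. When each library was left out in turn, the number of the 10 genes called for SP-2509 ranged from 6 to 8 in the MRPL45 line, from 3 to 5 in the CYC1 line, and from 8 to 9 in the UQCRFS1 line and in A673. Against A673 with DMSO it ranged from 8 to 9 in the MRPL45 and CYC1 lines and from 2 to 4 in the UQCRFS1 line. For the difference in response it ranged from 6 to 8, from 7 to 9 and from 3 to 5 in the MRPL45, CYC1 and UQCRFS1 lines. The cause was not tested, beyond that fewer libraries give fewer calls over all genes. For SP-2509 in the MRPL45 line 4005 genes were called in all, against 2615 and 2393 without its SP-2509 replicate 1 or 2, and for the difference in the UQCRFS1 line 2315, against 1313 without A673 SP-2509 replicate 1. Upper-quartile factors moved the median of all genes by -0.182 for SP-2509 in A673, by -0.136 in the UQCRFS1 line, and by 0.152 and 0.151 for the differences in the MRPL45 and CYC1 lines. Among 74 results named from the wider lists 65 kept their call. Most of them were picked for large changes, so this count does not speak for the lists as a whole.

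The labels do not say that equal replicate numbers mark a shared batch. The deviations of libraries with the same number correlated at 0.125 to 0.651 over the 28 pairs of groups. With the replicate number as a block, 99 of the 100 results of the 10 genes kept their call, and PDK1 in the UQCRFS1 line against A673 was then called at 0.212 (edgeR quasi-likelihood, Benjamini-Hochberg adjusted p = 0.0464).

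Low counts limit HKDC1 with DMSO (10 to 30 counts a library in A673 and the UQCRFS1 line), and of the 32 calls with an absolute log2 fold change under 0.5, 14 kept their call under every alternative run.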
